A study of Mus musculus with 12 samples.

Results

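Capillary endothelial cells made up 11978 of 28289 endothelial cells, and of 50017 cells kept, in 6 single-cell RNA libraries from the CD31 fraction of mouse lymph node. They were chosen by their own transcript counts. A cell was kept with at least 1000 UMIs (molecular tags that each mark 1 captured RNA molecule), 500 or more genes detected, and mitochondrial genes at no more than 10% of its UMIs. It counted as endothelial with at least 2 UMIs of Pecam1 plus Cdh5 and with no UMI of the leukocyte genes Ptprc, Cd79a and Cd3e. A capillary member also had at least 2 UMIs of Gpihbp1 plus Rgcc. It had no UMI of Fut7 or Chst4, made by high endothelial venules (HEV), of the lymphatic gene Prox1, or of the arterial genes Gkn3, Gja5 and Bmx. It had at most 1 UMI of the venous genes Vwf plus Selp and at most 1 of the sprouting genes Apln plus Esm1. Levels of these genes in the members follow from the choice and are description only.

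All mice were C57BL/6 animals of 7 to 10 weeks with both copies of Atg12 floxed (ATG12 fl/fl), and per the labels' protocols all were given tamoxifen 5 times. Libraries labelled Cre-positive came from mice carrying CDH5 CreER, a tamoxifen-activated Cre recombinase under the Cdh5 promoter, which is active in blood and lymphatic endothelium alike. Libraries labelled Cre-negative came from mice without it. Vehicle mice received acetone and olive oil on the shaved abdomen, and the others 50 ul of 4% oxazolone, a contact sensitiser, with nodes taken at day 3 or day 7. The labels give no day for the vehicle libraries, and the same vehicle libraries are set against both days. The design asks what loss of endothelial autophagy does during inflammation. There was 1 library for each genotype label and treatment, and neither the number of mice per library nor any pooling was given in the sources used here. Cells of 1 library are not replicates, so UMIs were summed per library, and p-values measure only the spread between these 6 libraries, which may be technical. In the model of treatment plus genotype label, that spread also holds any difference in treatment response between the labels, which is counted as error. For genes whose response differs between the labels, the lack of a call therefore does not show that nothing changed.

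Capillaries are the exchange vessels between arterioles and venules. GPIHBP1 on their surface holds lipoprotein lipase, which frees fatty acids from circulating lipoproteins, and CD36 and FABP4 carry those fatty acids into and through the endothelial cell. In a lymph node the capillaries feed the high endothelial venules through which lymphocytes enter, and the whole vascular bed grows when the node is inflamed. ATG12 is joined to ATG5 to form the enzyme complex that attaches LC3 to the growing autophagosome.

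Below, values are given as counts per 1000000 UMIs summed over the members of a library (CPM), scaled by TMM (a factor that evens out composition between libraries), and run from vehicle over day 3 to day 7, each time first for the Cre-negative and then for the Cre-positive label. Values called unscaled lack that factor. Atg12, the gene targeted for deletion, was not reduced under the Cre-positive label. The gene (ENSMUSG00000032905, chromosome 18, 46730144 to 46741580, minus strand, GRCm38) stood at 50.9 and 81.2 CPM at vehicle, 50.7 and 69.2 at day 3, and 56.6 and 72.2 at day 7. All 3 pairs had more of it under the Cre-positive label, with log2 0.49 (SE 0.10, edgeR adjusted p 1.00). The assay reads the 3-prime ends of transcripts, so RNA from a recombined allele may still be counted, and these counts cannot check the deletion. Genotype is therefore named below as a label.

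Libraries held 45437986 to 76186801 UMIs, and the members 1500 to 2416 cells and 7114761 to 10688415 summed UMIs per library. Median UMIs per member were 3662 and 3526 at vehicle, 2667 and 3192 at day 3, and 3755 and 4088 at day 7. The share of members with a UMI of a Y-linked gene was 38.0% and 61.1% at vehicle, 19.5% and 31.6% at day 3, and 26.4% and 14.7% at day 7, and the share with an Xist UMI was 30.6% and 0% at vehicle, 40.7% and 35.2% at day 3, and 45.4% and 39.1% at day 7. The 0 of 2060 members with Xist in the vehicle library labelled Cre-positive allow a share of up to 0.146% (3 counts of the total), and the other 5 libraries held both kinds of UMI. Summed haemoglobin and platelet genes, the markers of red cells and platelets, stood at 572 and 1000.2 CPM at vehicle, 298 and 863 at day 3, and 6.89 and 1022 at day 7, and the day 7 library labelled Cre-negative was apart from the rest. Summed pericyte markers ranged over 16.6 to 121 CPM, T cell markers over 3.90 to 26.6 and fibroblast markers over 6.76 to 19.3. Markers of the neighbouring vessels were higher: HEV markers summed to 733 to 1442 CPM, venous to 604 to 828 and arterial to 738 to 808. B cell markers summed to 1147 to 1482 CPM, of which Ebf1, a transcription factor gene, made up 1129 to 1386. Between 9 and 25 of the kept barcodes were shared by any 2 libraries. Free RNA, read from barcodes of 1 to 100 UMIs, reached the members at a low level: Glycam1 of HEV, Ccl21a of lymphatic and stromal cells and Ighm of B cells stood at 0.664 to 8.17% of their CPM there, highest in the day 3 library labelled Cre-positive.

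The 4 marker genes did not all single out the members. Cd300lg, a mucin-like receptor of capillary endothelium, stood at 875 and 765 CPM at vehicle, 751 and 529 at day 3, and 769 and 826 at day 7, above 190.3 to 444 in cells of the HEV gate, 124 to 374 in the venous and 142 to 285 in the arterial gate (unscaled CPM, lowest to highest library). Ly6c1, a surface protein of blood endothelium, ranged over 2099 to 2306 CPM in the members and 2067 to 2907 in the arterial gate, so these overlapped, against 367 to 663 in the HEV gate. Gpihbp1 (ENSMUSG00000022579, chromosome 15, 75596628 to 75599481, plus strand) and Rgcc (ENSMUSG00000022018, chromosome 14, 79288756 to 79301645, minus strand) ranged over 862 to 1552 and 1135 to 1409.7 CPM, which the choice of cells fixes. The HEV, venous and arterial gates held 1806, 424 and 1010 cells and were set by their own marker counts, so level differences between gates have no test here.

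Genes of fatty acid uptake, which the rule did not read, separated the summed members from the HEV, venous, arterial and lymphatic gates. Endothelial cells in none of these gates, 988 to 2198 per library, were not compared. The venous gate also left out cells that met the threshold of Gpihbp1 plus Rgcc, so part of its difference follows from how it was set. Levels by gate, the members included, are unscaled CPM here. Fabp4 (ENSMUSG00000062515, chromosome 3, 10204088 to 10208576, minus strand), a fatty acid carrier, ranged over 10187 to 23794 CPM in the members, 839 to 1290.1 in the HEV, 3185 to 5788 in the venous and 2649 to 6662 in the arterial gate. Cd36 (ENSMUSG00000002944, chromosome 5, 17781690 to 17888801, minus strand), a fatty acid receptor, ranged over 1429 to 3005 CPM in the members against 13.6 to 34.7 in the HEV gate. Car4, a carbonic anhydrase on the capillary surface, ranged over 229 to 413 CPM, and 3.43 to 9.14, 0 to 14.6 and 2.10 to 24.3 in the HEV, venous and arterial gates. Lpl, the lipoprotein lipase that GPIHBP1 anchors, ranged over 94.8 to 272 CPM against 0.417 to 4.37, 0 to 11.4 and 7.63 to 27.3. For these genes every library of the members lay above every library of the HEV, venous, arterial and lymphatic gates.

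**Figure D1:**
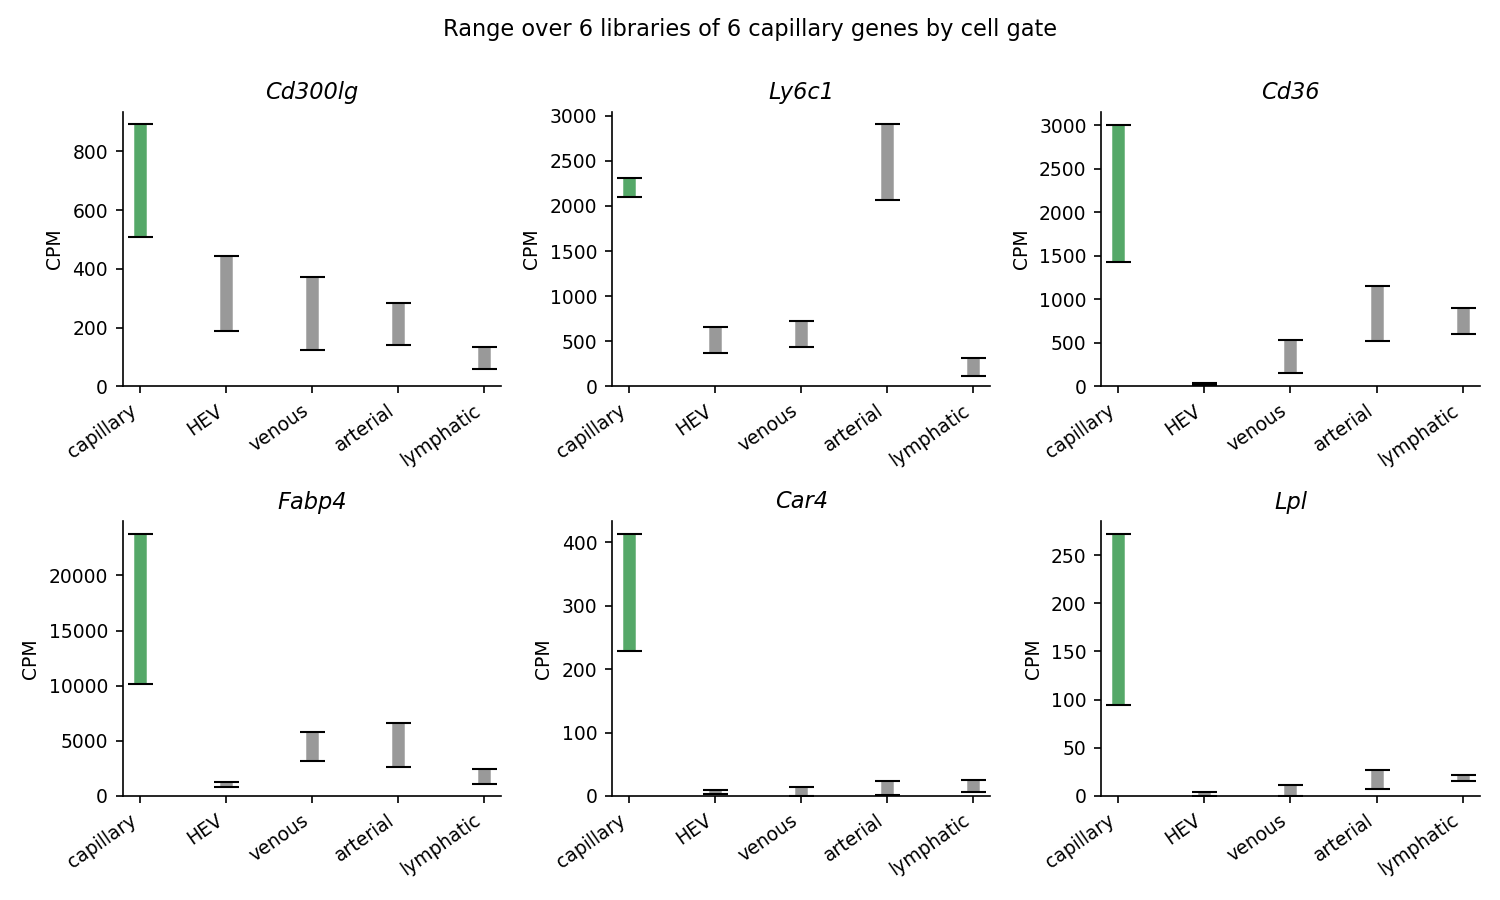
Lowest to highest of 6 libraries, in unscaled CPM (linear axes), for 6 genes of capillary endothelium in the capillary members and 4 other gates of endothelial cells. Cd36 spans 1429 to 3005 CPM in the members and 13.6 to 34.7 in the HEV gate, while the spans of Ly6c1 in members and arterial cells overlap.

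Members just inside the threshold, with 2 UMIs of Gpihbp1 plus Rgcc, numbered 127 to 311 per library, and cells just outside, with 1, numbered 124 to 398. In unscaled CPM, Fabp4 ranged over 2339 to 8054 just inside and 1409.5 to 4793 just outside, and Cd300lg over 380.0 to 589 and 308 to 521. Cd36 ranged over 534 to 1442 just inside and 244 to 938 just outside. The Fabp4 span just inside overlapped those of the venous and arterial gates. In every library Fabp4 was higher just inside than just outside. Members were 45.2% and 45.3% at vehicle, 51.0% and 40.7% at day 3, and 34.2% and 38.9% at day 7 of endothelial cells, with exact Clopper-Pearson 95% intervals at most 1.56 percentage points to either side, which cover counting error only. The share was lower at day 7 than at vehicle under both labels. Day 3 lay above vehicle in the library labelled Cre-negative and below it in the one labelled Cre-positive. The endothelial total includes cells of the lymphatic gate. That gate held 765 and 716 cells at vehicle, 466 and 593 at day 3, and 1036 and 998 at day 7. A lower member share is therefore not by itself a loss of capillary cells, and the part of lymphatic cells in it was not tested. With the rule applied after thinning each cell to 2000 UMIs, the shares were 48.4% and 46.6% at vehicle, 48.6% and 42.2% at day 3, and 34.3% and 39.5% at day 7, with the same directions except that the day 3 library labelled Cre-negative differed from vehicle by less than its interval. Among cells of at least 2000 UMIs the day 3 library labelled Cre-negative lay below vehicle, at 44.6% against 45.4%.

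Fabp4 varied widely from member to member. After thinning each member to 1000 UMIs, the median member held 13 and 9 Fabp4 UMIs at vehicle, 33 and 6 at day 3, and 2 and 13 at day 7, and the 10th and 90th percentiles were 0 and 51 to 77. Cd36 was found in 64.2% and 57.6% at vehicle, 75.9% and 52.5% at day 3, and 42.8% and 59.3% at day 7 of the thinned members, and in 76.3% and 68.0% at vehicle, 84.0% and 67.8% at day 3, and 54.7% and 72.9% at day 7 of the unthinned ones. In B cells of these libraries, some kinds of which can make Cd36, the share was 1.14% to 3.70% at the same thinned depth. Plvap (ENSMUSG00000034845, chromosome 8, 71497765 to 71511752, minus strand), the protein of the diaphragms that close endothelial pores and caveolae, was found in 46.4% and 42.3% at vehicle, 27.1% and 51.7% at day 3, and 61.2% and 41.9% at day 7 of thinned members (36.8% to 72.3% unthinned), against 0.573% to 4.13% of thinned B cells. The extremes of the 2 genes were opposite: the day 3 library labelled Cre-negative had the highest Cd36 and the lowest Plvap share, and the day 7 library labelled Cre-negative the lowest Cd36 and the highest Plvap share.

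Summed over members, Fabp4 stood at 21926 and 16887 CPM at vehicle, 23888 and 12245 at day 3, and 10018 and 19840.1 at day 7 and Cd36 at 2941 and 2370.4 CPM at vehicle, 2650.1 and 1489.9 at day 3, and 1448 and 2439 at day 7. Aqp7, a glycerol channel, was at 256 and 187 CPM at vehicle, 203 and 84.9 at day 3, and 114 and 200.4 at day 7. Pparg, the nuclear receptor that switches on fatty acid genes, was at 362 and 376 CPM at vehicle, 314 and 171 at day 3, and 212 and 396 at day 7. In each of these genes the day 3 library labelled Cre-positive and the day 7 library labelled Cre-negative were the lowest 2. Tcf15, a transcription factor of fat-handling endothelium, was lowest in the same libraries, at 264 and 344 CPM at vehicle, 407 and 167 at day 3, and 183 and 295 at day 7, and Mgll, which cleaves monoglycerides, was at 1178 and 793 CPM at vehicle, 873 and 443 at day 3, and 675 and 1144 at day 7. Plvap was highest in those 2 libraries, at 1313 and 1234 CPM at vehicle, 1075 and 1719 at day 3, and 1926 and 1320.3 at day 7. Neither oxazolone nor the genotype label alone sets those 2 apart, and with 1 library for each combination this arrangement has no replicate. The median member of these 2 libraries held 7 UMIs of Gpihbp1 plus Rgcc, the genes that choose the members, against 9 to 10 in the other 4. Summed venous markers were highest in the same 2, at 828 and 705 CPM against 604 to 676, and so were arterial markers, at 808 and 799 against 738 to 788. HEV markers were highest in the day 7 library labelled Cre-negative, at 1442 CPM. Their part in the lipid gene levels was not tested. The same 2 libraries were lowest for Fabp4 among members with no UMI of the mitotic genes defined below, at 24399 and 17617 CPM (unscaled) at vehicle, 28554 and 15579 at day 3, and 10693 and 22117 at day 7.

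**Figure D2:**
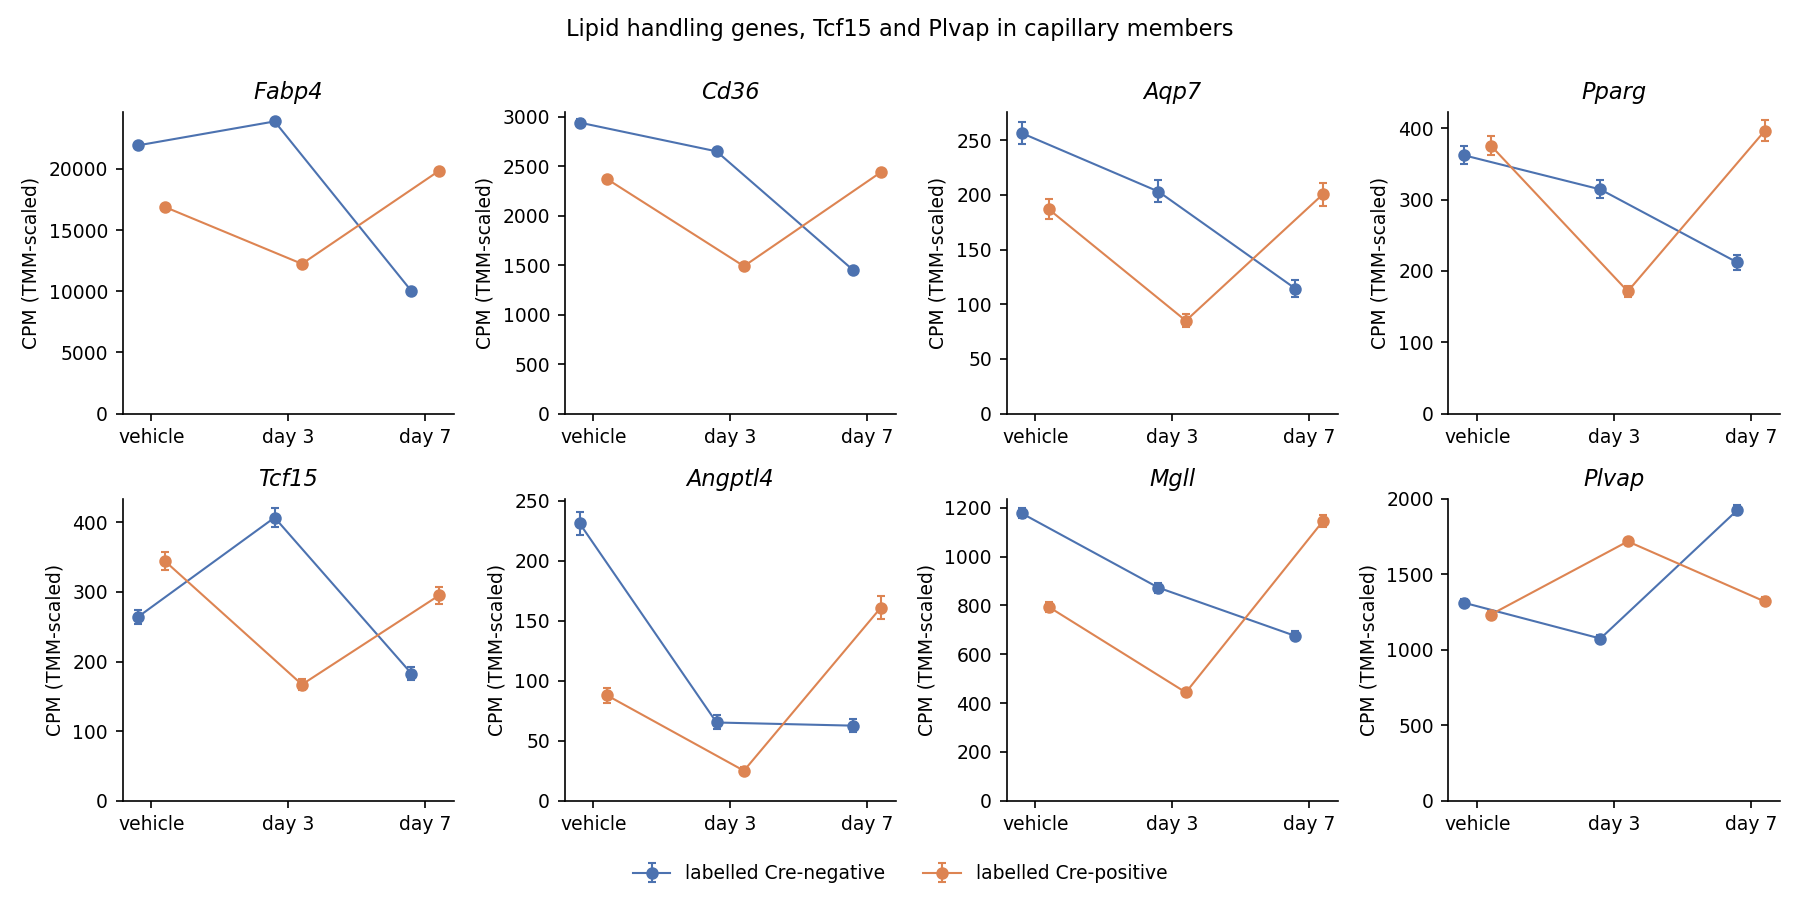
CPM (TMM-scaled, linear axes) of 6 lipid handling genes, Tcf15 and Plvap in the capillary members of each library, by treatment and genotype label; bars on the points are exact Poisson 95% intervals of the UMI count. The day 3 library labelled Cre-positive and the day 7 library labelled Cre-negative are the lowest 2 for Cd36, Aqp7, Pparg and Tcf15, and the highest 2 for Plvap.

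At day 3 of oxazolone the members of both libraries held more RNA of DNA replication and division genes, of E-selectin (Sele) and of the protein folding genes Manf and Hspa5 than those of both vehicle libraries, and less of Arrdc4 and Sik1. No single gene passed the test below, so these are values of 2 libraries against 2. Day 3 was compared with vehicle by edgeR's quasi-likelihood test on UMIs summed per library, in a model with genotype label and treatment. None of 13269 genes (0% higher, 0% lower) passed an adjusted p of 0.05, and the lowest adjusted p was 0.208. An unadjusted p under 0.05 was reached by 2139 genes, or 9.65% higher and 6.47% lower. DESeq2 called 68 higher and 24 lower (0.512% and 0.181%). In 25.1% of genes both day 3 libraries lay above both vehicle libraries, and in 26% below. The counts for gene lists below are to be read beside these shares, which hold for the fit to all 6 libraries. Each refit with a library left out has shares of its own over all genes. At day 3 these were lower in both directions in every refit except the one without the vehicle library labelled Cre-negative. In that refit only the downward share was lower. The shares were lowest without the vehicle or the day 3 library labelled Cre-positive. A lower list count in a refit is therefore not by itself particular to the list.

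Genes of DNA replication and cell division were the group most uniformly higher at day 3. The sequences of 3 of their promoters are shown because replication genes are classic targets of E2F, the factor family that opens S phase, and because these 3 were the listed cell cycle genes whose window held a match; they are the 250 bases before a RefSeq start on GRCm38.p6, and capitals mark each match to TTTCCCGC or TTTGGCGC, forms of the E2F site, on either strand.
Mcm5 promoter, chr8:75109259-75109508, plus strand: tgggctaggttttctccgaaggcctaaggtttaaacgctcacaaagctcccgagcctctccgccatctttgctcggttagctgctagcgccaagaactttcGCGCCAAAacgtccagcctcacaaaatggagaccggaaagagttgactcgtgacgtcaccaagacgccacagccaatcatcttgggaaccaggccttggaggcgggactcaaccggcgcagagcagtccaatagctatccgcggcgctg
Mcm6 promoter, chr1:128359706-128359955, minus strand: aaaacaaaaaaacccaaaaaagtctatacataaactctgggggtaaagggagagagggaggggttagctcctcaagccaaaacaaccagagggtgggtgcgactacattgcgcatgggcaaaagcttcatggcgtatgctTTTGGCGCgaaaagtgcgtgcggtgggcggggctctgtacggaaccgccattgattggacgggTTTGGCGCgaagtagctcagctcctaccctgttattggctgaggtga
Mcm7 promoter, chr5:138171884-138172133, minus strand: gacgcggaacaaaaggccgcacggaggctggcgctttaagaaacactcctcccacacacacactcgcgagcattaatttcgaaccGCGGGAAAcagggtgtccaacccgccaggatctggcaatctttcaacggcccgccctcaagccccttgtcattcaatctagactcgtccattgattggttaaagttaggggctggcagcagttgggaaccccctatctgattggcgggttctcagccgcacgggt
Mcm5 held 1 match, 149 bases before the start, Mcm6 held 2, at 110 and 47 bases, and Mcm7 held 1, at 165 bases. The table gives 2 windows for Mcm7, and the one shown is the 1 with a match. It lies inside the Mcm7 gene of the GENCODE annotation (138164583 to 138172422), whose start is further upstream than this RefSeq start. Of the 30 cell cycle genes, 25 had a window in the RefSeq table, and 3 of these (12.0%) held a match, against 407 of 27025 genes (1.51%) in the table. A match describes the letters only and shows no binding.

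These 3 genes encode subunits of the helicase that opens DNA for replication. Mcm5 stood at 10.9 and 5.70 CPM at vehicle, 22.2 and 26.8 at day 3, and 7.70 and 9.34 at day 7, or log2 1.57 (SE 0.31, edgeR adjusted p 0.208). Mcm6 was at 26.3 and 23.3 CPM at vehicle, 34.9 and 37.5 at day 3, and 22.4 and 21.8 at day 7, and Mcm7 at 21.6 and 15.9 CPM at vehicle, 30.8 and 39.2 at day 3, and 15.5 and 20.8 at day 7. Both day 3 libraries lay above the other 4 for each of the 3 genes. Their log2 changes were 0.55 (SE 0.12) for Mcm6 and 0.88 (SE 0.22) for Mcm7, at edgeR adjusted p of 0.211 and 0.221.

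All 30 listed cell cycle genes had a fitted change above 0 at day 3, with a median log2 of 1.76 against -0.02 over all genes. For all 30 both day 3 libraries lay above both vehicle libraries, and 28 had an unadjusted p under 0.05. None passed the edgeR adjusted threshold, and DESeq2 called 8. The pair labelled Cre-negative had a median log2 of 0.99 and the pair labelled Cre-positive 2.18. Tyms (ENSMUSG00000025747, chromosome 5, 30058202 to 30073617, minus strand), which makes thymidylate for DNA, stood at 31 and 27.5 CPM at vehicle, 67.6 and 84.5 at day 3, and 32.3 and 30.5 at day 7, or log2 1.38 (SE 0.15, edgeR adjusted p 0.208). Pcna, the sliding clamp of DNA polymerase, was at 59.6 and 66.6 CPM at vehicle, 104 and 98.6 at day 3, and 66.3 and 64.8 at day 7, or log2 0.68 (SE 0.11, edgeR adjusted p 0.208). For both genes the day 3 libraries lay above the other 4. Top2a (ENSMUSG00000020914, chromosome 11, 98992943 to 99024189, minus strand), the topoisomerase that untangles chromosomes, was at 37.1 and 7.91 CPM at vehicle, 87.2 and 151 at day 3, and 9.73 and 35.3 at day 7, or log2 2.31 (SE 0.83, edgeR adjusted p 0.273). Mki67, the usual proliferation marker, was at 21.9 and 5.47 CPM at vehicle, 51.4 and 91.6 at day 3, and 6.89 and 30.4 at day 7, or log2 2.23 (SE 0.81, edgeR adjusted p 0.275). Tyms and Pcna were close in the 2 vehicle libraries, whereas Top2a and Mki67 were several times higher in the vehicle library labelled Cre-negative than in the other. Free RNA held the same genes: Top2a in the members stood at 42.6 to 82.3% of its free RNA level and Tyms at 82.8 to 133%, against at most 8.17% for the 3 genes of other cells. With genes higher in free RNA than in the members of at least 1 library left out, 1 of the 30 cell cycle genes remained, at log2 0.54 and not at an unadjusted p under 0.05. That filter dropped 16519 genes in all, so losing genes to it is not particular to the lists named here. Of all genes left, 7.05% had an unadjusted p under 0.05 upward at day 3 and 5.01% downward. The part of free RNA in the list's change was not tested. Leaving out each library in turn, in the order above, gave 29, 18, 18, 13, 30 and 30 genes at an unadjusted p under 0.05 and medians of 2.40, 0.89, 1.83, 1.49, 1.87 and 1.87. With members that had a UMI of a Y-linked gene alone the median was 1.38 and the count 24.

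**Figure D3:**
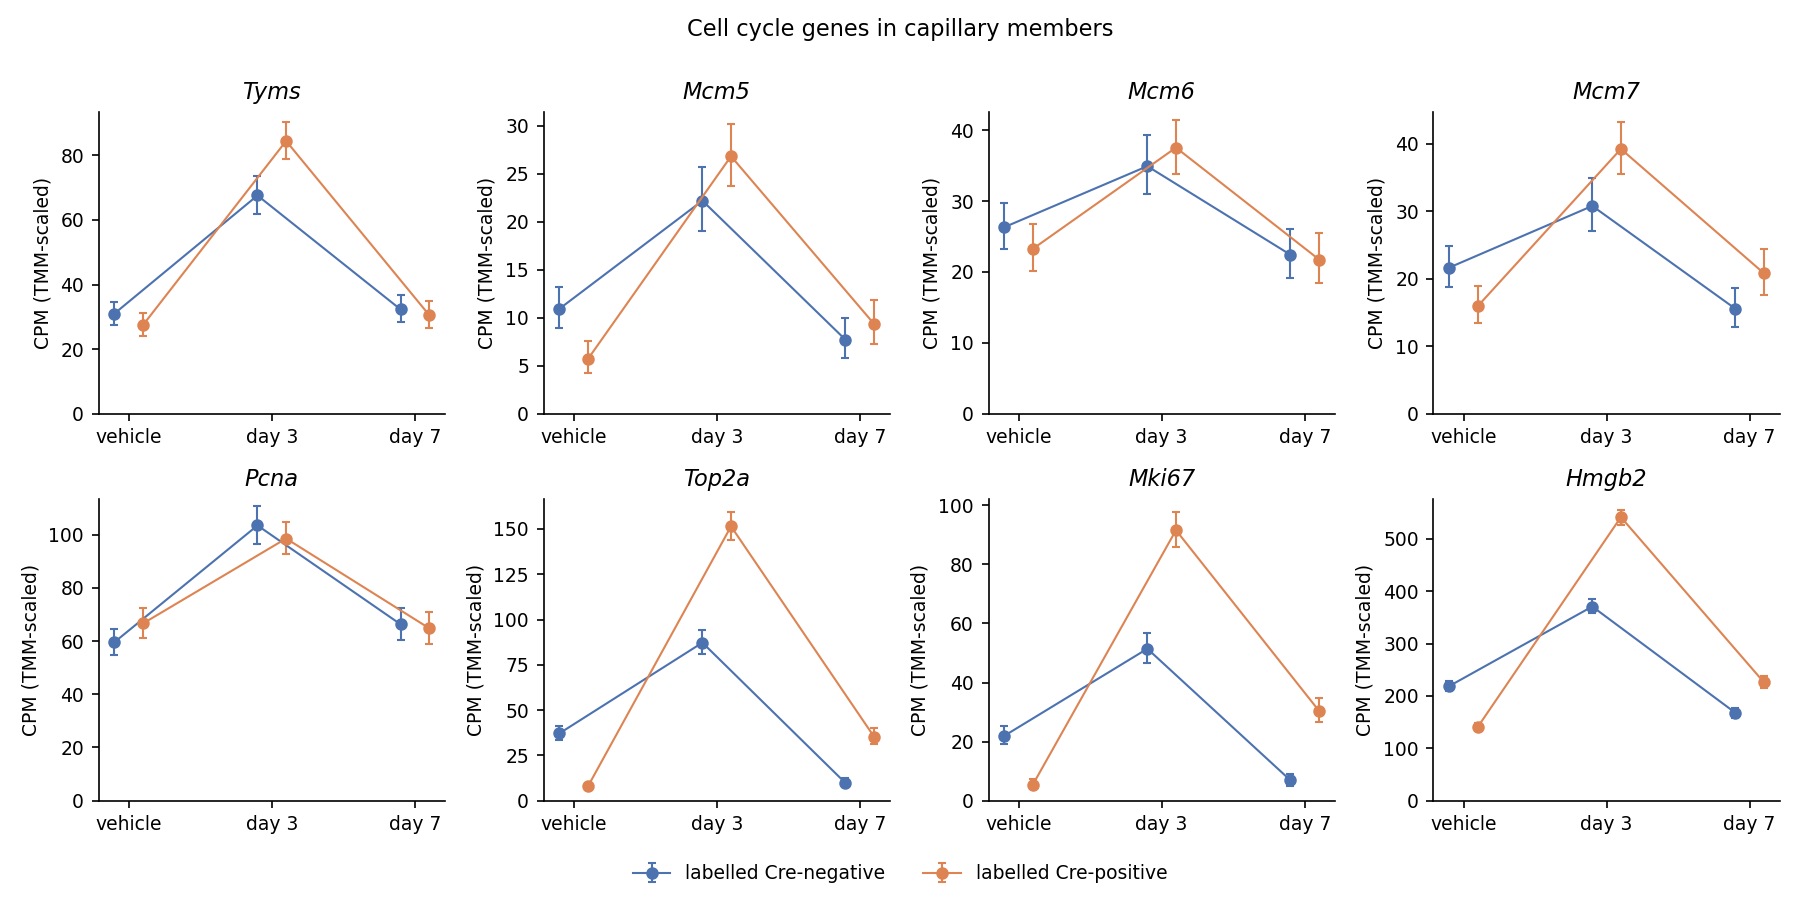
CPM (TMM-scaled, linear axes) of 8 cell cycle genes in the capillary members of each library, by treatment and genotype label; bars on the points are exact Poisson 95% intervals of the UMI count. Both day 3 libraries lie above the vehicle and day 7 libraries in all 8 panels, and the vehicle libraries differ more for Top2a and Mki67 than for Tyms and Pcna.

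The 10 genes of mitosis in the list (Mki67, Top2a, Ccnb1, Ccnb2, Ccna2, Cdk1, Birc5, Ube2c, Cenpf and Cdc20) had a median log2 change of 2.32, and their summed level was 158 and 29.7 CPM at vehicle, 391 and 674 at day 3, and 44.6 and 188 at day 7. The 11 genes of replication (Pcna, Mcm2 to Mcm7, Tyms, Rrm1, Cdt1 and Gins2) had a median of 0.85, with a summed level of 220.1 and 201 CPM at vehicle, 376 and 423 at day 3, and 205 and 218 at day 7. The replication sum was even across the 4 vehicle and day 7 libraries, while the mitotic sum was not. Members with at least 2 UMIs of the mitotic genes were 3.71% and 1.07% at vehicle, 5.97% and 13.9% at day 3, and 1.29% and 3.47% at day 7. Thinned to 1000 UMIs per cell they were 1.47% and 0.243% at vehicle, 2.98% and 7.62% at day 3, and 0.527% and 1.33% at day 7. Both measures were highest in the 2 day 3 libraries, and the day 3 library labelled Cre-positive stood above the one labelled Cre-negative. These are 1 library each, with no test between the labels. Cells with the highest Scrublet scores, which mark likely doublets, were 6.66% of the members of the day 3 library labelled Cre-positive. They were 2.20 to 3.51% in the other libraries. The share of all cells so marked was set by library size, at 9.31% there against 5.05 to 8.03%. The part of doublets in the mitotic shares was not tested. B cells of the same libraries, which can divide themselves and so do not measure free RNA alone, held such cells at 5.29% and 1.15% at vehicle, 1.14% and 3.49% at day 3, and 0.388% and 3.14% at day 7 of thinned cells, in another order.

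**Figure D4:**
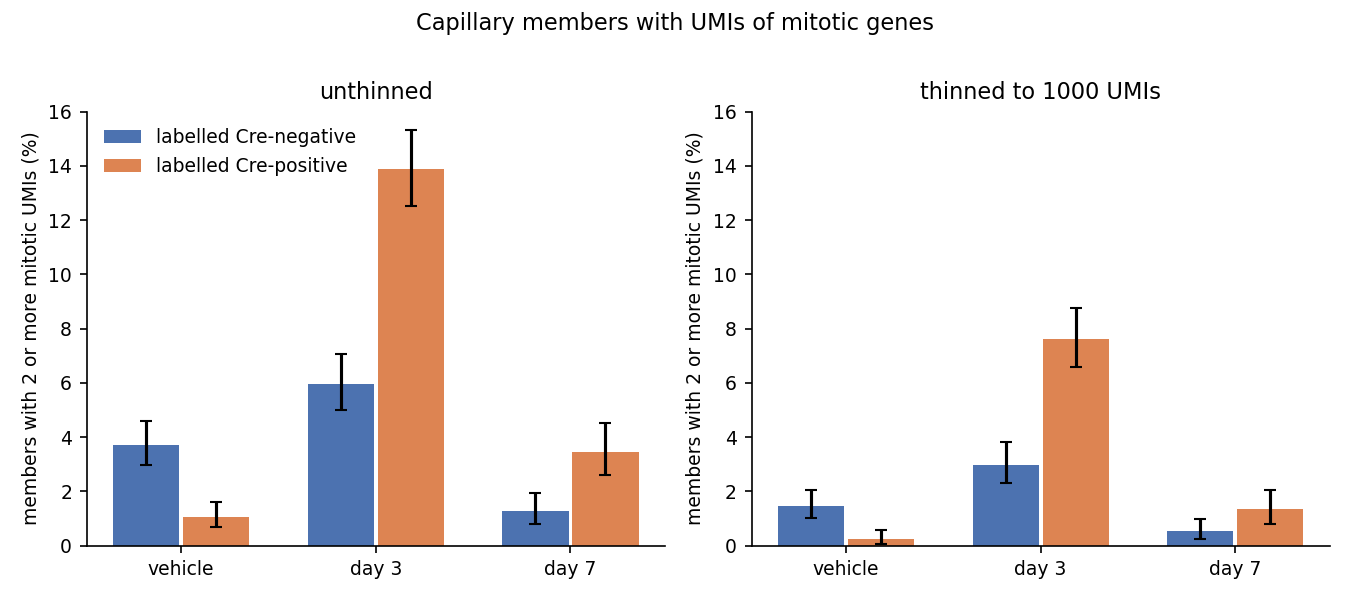
Percent of capillary members with at least 2 UMIs of 10 mitotic genes in each library, unthinned and after thinning every member to 1000 UMIs (linear axes from 0); bars are exact binomial 95% intervals. Day 3 is highest under both labels in both panels, and the day 3 library labelled Cre-positive is above the one labelled Cre-negative.

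Requiring at least 2 UMIs of 10 genes picks deeper cells, and the members so picked had a median of 7161 to 8916 UMIs, against 2538 to 3823 in members with none. The levels below are unscaled CPM, so per UMI, but were not matched for depth. Fabp4 ranged over 2602 to 7033 CPM in them and 10693 to 28554 in the others, and Cd300lg over 265 to 514 and 607 to 936 CPM. Both genes were lower in the members with mitotic UMIs in every library, and so was Ly6c1, at 1051 to 1584 against 2126 to 2596. The summed T, B and myeloid genes Cd3d, Cd79b and Lyz2 were at 0 to 19.0 CPM in the members with 2 or more mitotic UMIs. The rule had left out cells with a UMI of Ptprc, Cd79a or Cd3e, so this low level follows in part from the choice.

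When members with any mitotic UMI were left out, a choice made after seeing the data, 19 of the 30 genes were still tested and all 19 had a fitted change above 0. Their median log2 was 0.35, against 0.88 for the same 19 genes in all members and 0.00 over all genes, and 4 had an unadjusted p under 0.05. The 4 were Mcm5 at log2 0.91, Tyms at 0.67, H2afz at 0.51 and Cdt1, which licenses replication origins, at 1.48. Of the other 15, Pcna had a log2 of 0.00, Rrm1 of 0.12 and Mcm6 of 0.16. The replication sum in members with no mitotic UMI was 172 and 181 CPM (unscaled) at vehicle, 210.4 and 197 at day 3, and 191 and 164 at day 7. The day 3 libraries were thus the highest 2 there too, by a smaller margin. Having no mitotic UMI depends on depth, and these members were shallower at day 3. Their median UMIs were 3544 and 3486.5 at vehicle, 2537.5 and 2868 at day 3, and 3675.5 and 3823 at day 7. Dividing cells of low depth may therefore remain among them, and their part in the change was not tested.

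Among genes of at least 20 CPM on average that went the same way under both labels, the 10 of lowest p at day 3 were led by Arrdc4 (ENSMUSG00000042659, chromosome 7, 68736995 to 68749241, minus strand), an arrestin-domain adaptor, at 42.5 and 44.8 CPM at vehicle, 17.1 and 19.2 at day 3, and 42.0 and 43.0 at day 7, or log2 -1.26 (SE 0.11, edgeR adjusted p 0.208). Txnip, its relative and a brake on glucose uptake, was not among the 10 and stood at 1086 and 786 CPM at vehicle, 608 and 356 at day 3, and 687 and 738 at day 7, or log2 -0.98 (SE 0.23, edgeR adjusted p 0.211). Sik1 (ENSMUSG00000024042, chromosome 17, 31844250 to 31855804, minus strand), a kinase induced by cyclic AMP, was at 111 and 128 CPM at vehicle, 36.9 and 48.4 at day 3, and 119 and 110.4 at day 7, or log2 -1.49 (SE 0.14, edgeR adjusted p 0.208). Each of these 3 was lower in both day 3 libraries than in the other 4. Pde7b, which breaks down cyclic AMP, was at 158 and 159.7 CPM at vehicle, 80.2 and 95.8 at day 3, and 183 and 189 at day 7, or log2 -0.85 (SE 0.12, edgeR adjusted p 0.208). It was lower in both day 3 libraries as well. Higher in both were Ran, the GTPase of nuclear transport, at 158 and 137 CPM at vehicle, 285 and 321 at day 3, and 146 and 155 at day 7, and Dnmt1, which copies DNA methylation to new strands, at 26.3 and 27.8 CPM at vehicle, 43.9 and 50.4 at day 3, and 24.7 and 26.5 at day 7. Their changes were log2 1.03 (SE 0.14, edgeR adjusted p 0.208) and log2 0.80 (SE 0.11, edgeR adjusted p 0.208). The tubulin gene Tubb6 stood at 14.9 and 15.6 CPM at vehicle, 30.4 and 42.4 at day 3, and 14.7 and 17.7 at day 7, with log2 1.24 (SE 0.15, edgeR adjusted p 0.208). Also in the 10 of lowest p were 2610203C22Rik, Cacybp and Siva1, higher in both day 3 libraries at log2 1.20, 0.91 and 0.79.

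Protein folding genes of the endoplasmic reticulum leaned higher at day 3. Of 22 genes, 17 had a change above 0 and 9 an unadjusted p under 0.05 in that direction, with none in the other and a median log2 of 0.24. Manf, a secreted factor of the folding stress response, stood at 109.5 and 109 CPM at vehicle, 203 and 181 at day 3, and 113 and 96.9 at day 7, or log2 0.81 (SE 0.11, edgeR adjusted p 0.208). Hspa5, the main chaperone of the compartment, was at 281 and 267 CPM at vehicle, 467 and 374 at day 3, and 332 and 209.9 at day 7, or log2 0.60 (SE 0.17, edgeR adjusted p 0.232), and Sdf2l1, its partner, at 19.9 and 13.5 CPM at vehicle, 35.9 and 31.4 at day 3, and 22.7 and 11.2 at day 7. Each was higher in both day 3 libraries than in the other vehicle and day 7 libraries. The stress transcription factor Atf4 was not higher, at 103 and 119 CPM at vehicle, 101 and 99.6 at day 3, and 118 and 103 at day 7. Without each library in turn the median log2 was 0.34, 0.20, 0.36, 0.22, 0.24 and 0.24. In members with a UMI of a Y-linked gene alone, 13 were above 0, with a median of 0.16. Of the 22, 3 then had an unadjusted p under 0.05 upward and 1 downward, against 7.18% and 4.40% of all genes. With genes higher in free RNA left out, 6 of the 22 remained, 3 of them at such a p upward, against 7.05% of all genes left.

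Cholesterol genes also stood higher at day 3: 16 of 17 were above 0, 12 had no overlap between the groups and 5 had an unadjusted p under 0.05, with a median log2 of 0.26. Idi1, an enzyme of isoprenoid synthesis, was at 10.6 and 10.8 CPM at vehicle, 20.7 and 22.6 at day 3, and 10.0 and 9.76 at day 7, or log2 1.01 (SE 0.15, edgeR adjusted p 0.208). Fdps, which makes farnesyl diphosphate, was at 24.1 and 18.1 CPM at vehicle, 37.6 and 38.8 at day 3, and 16.9 and 21.3 at day 7. For both genes the 2 vehicle and 2 day 7 libraries lay below both day 3 libraries. The list's count was 4, 3, 3, 3, 5 and 5 without each library in turn. Of 15 glycolysis genes 7 had an unadjusted p under 0.05, all higher, with Gapdh at 370.1 and 297 CPM at vehicle, 461 and 540.0 at day 3, and 309 and 391 at day 7 and Pgk1 at 58.7 and 47.1 CPM at vehicle, 71.5 and 89.8 at day 3, and 51.9 and 55.2 at day 7. That count was 7, 1, 7, 2, 5 and 5 without each library in turn. With genes higher in free RNA left out, 1 of the cholesterol and 2 of the glycolysis genes remained, none at an unadjusted p under 0.05.

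Adhesion and inflammation genes split at day 3. Of 30, 6 had an unadjusted p under 0.05 upward and 4 downward, and DESeq2 called 2 and 1. Sele (ENSMUSG00000026582, chromosome 1, 164048234 to 164057677, plus strand), the E-selectin that slows rolling leukocytes, stood at 7.59 and 9.07 CPM at vehicle, 20.9 and 38.5 at day 3, and 3.51 and 5.30 at day 7. Its change was log2 1.78 (SE 0.20, edgeR adjusted p 0.208) at day 3, and all 3 treatments were apart from each other. Lrg1, a secreted glycoprotein of inflamed vessels, was at 193 and 107 CPM at vehicle, 275 and 426 at day 3, and 158 and 150.2 at day 7, or log2 1.25 (SE 0.33, edgeR adjusted p 0.228). Ch25h (ENSMUSG00000050370, chromosome 19, 34473778 to 34475164, minus strand), which makes the chemoattractant precursor 25-hydroxycholesterol, was at 12.7 and 14.3 CPM at vehicle, 29.1 and 63.0 at day 3, and 8.11 and 17.6 at day 7, or log2 1.67 (SE 0.25, edgeR adjusted p 0.208). Both genes were highest in the day 3 library labelled Cre-positive, the library with the highest share of free RNA by the 3 genes above, and in it the members exceeded the free RNA level of Sele, Lrg1 and Ch25h. In the other 5 libraries Sele stood at 9.32 to 35.6% of its free RNA level, Lrg1 at 24.3 to 58.7% and Ch25h at 36.0 to 103%. The part of free RNA in these changes was not tested. In the opposite direction, the membrane chemokine Cx3cl1 was at 28.1 and 46.5 CPM at vehicle, 11.3 and 17.7 at day 3, and 40.5 and 38.1 at day 7, or log2 -1.34 (SE 0.22, edgeR adjusted p 0.208), and the NF-kB regulator Nfkbiz at 131 and 233 CPM at vehicle, 71.5 and 107 at day 3, and 195 and 119.5 at day 7. Icam1 and Vcam1 encode ligands of leukocyte integrins. Icam1 was at 110.1 and 246 CPM at vehicle, 105 and 121 at day 3, and 213 and 114 at day 7 and Vcam1 at 25.6 and 20.8 CPM at vehicle, 24.3 and 30.8 at day 3, and 21.9 and 29.8 at day 7. Icam1 was lower at day 3 than at vehicle under both labels, and Vcam1 lower under the Cre-negative and higher under the Cre-positive label. When each library was left out in turn the upward count was 7, 2, 7, 2, 5 and 5 and the downward count 9, 2, 2, 2, 8 and 8.

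Immediate-early genes, which respond to stimuli and to cell handling within minutes, stood lower at day 3: 6 of 19 had an unadjusted p under 0.05 downward, with a median log2 of -0.69. Fos was at 886 and 1648 CPM at vehicle, 432 and 813 at day 3, and 1356 and 645 at day 7, Egr1 at 415 and 763 CPM at vehicle, 282 and 286 at day 3, and 642 and 381 at day 7 and Nr4a1 at 147 and 293 CPM at vehicle, 48.4 and 106 at day 3, and 275 and 132 at day 7. The vehicle library labelled Cre-positive and the day 7 library labelled Cre-negative were the highest 2 for each, under neither treatment nor label alone. Leaving out each library in turn gave downward counts of 12, 0, 1, 2, 12 and 12 and medians of -1.21, -0.17, -0.49, -0.95, -0.67 and -0.67.

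Few interferon-stimulated genes were higher at day 3 in the members. Of 32, 10 were above 0 and 5 had an unadjusted p under 0.05, all downward, with a median log2 of -0.12. Rsad2, an antiviral enzyme, was at 329 and 386 CPM at vehicle, 231 and 258 at day 3, and 372 and 347 at day 7, or log2 -0.55 (SE 0.14, edgeR adjusted p 0.221), and Ifit2 at 66.4 and 78.5 CPM at vehicle, 52.1 and 59.1 at day 3, and 65.4 and 80.5 at day 7. Both day 3 libraries were the lowest 2 of the 6 for both genes. The downward count was 6, 6, 2, 4, 5 and 5 without each library in turn. In members with a UMI of a Y-linked gene alone it was 1, and the list's median turned to 0.08 with 18 of 32 above 0. Autophagy genes had a median log2 of -0.16, with 4 of 31 at an unadjusted p under 0.05 downward and none upward. Without each library in turn it was 3, 3, 1, 1, 4 and 4, and the median -0.19, -0.05, -0.18, -0.08, -0.16 and -0.16. The capillary identity list had 0 and 0 of 18 genes at an unadjusted p under 0.05 in the 2 directions, and a median of -0.05, which turned to 0.09 without the vehicle and 0.08 without the day 3 library labelled Cre-positive. Of the listed VEGF receptor and tip cell genes 1 was higher and 3 lower at that p among 22. The rule left out cells with more than 1 UMI of the sprouting genes Apln plus Esm1, so the response of such cells is not read here. The downward count was 6, 1, 4, 1, 2 and 2 with each library left out in turn. The list's median turned from -0.10, with 7 of 22 above 0, to 0.16 with 16 above 0 without the vehicle library labelled Cre-positive, and to 0.06 with 13 above 0 without the day 3 one. The receptor gene Kdr was at 988 and 1275 CPM at vehicle, 1099 and 928 at day 3, and 1160.2 and 939.6 at day 7.

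The day 3 response of members was next set against that of the HEV gate in the same libraries, by a test of the difference of responses with library as a block. Of 13388 genes, edgeR called none (0%), with 6.15% at an unadjusted p under 0.05 higher in the capillary response and 1.99% lower, or 1090 genes, and a lowest adjusted p of 0.133. DESeq2 was not run on this model. Sele in the HEV gate stood at 380.1 and 408 CPM at vehicle, 419.8 and 351 at day 3, and 303 and 188 at day 7 (unscaled), and the capillary response exceeded the HEV response by log2 1.86 (edgeR adjusted p 0.178). Cxcl12, a chemokine that draws lymphocytes, stood in the members at 2719 and 2054 CPM at vehicle, 2494 and 2589 at day 3, and 2365 and 2332 at day 7, while the HEV gate had 237 and 177 CPM at vehicle, 66.9 and 96.6 at day 3, and 146 and 171 at day 7, a difference of 1.48 (edgeR adjusted p 0.133). Cxcl9, induced by interferon gamma, was at 313 and 238 CPM at vehicle, 319 and 218 at day 3, and 139 and 314 at day 7 in the members and 69.8 and 96.9 CPM at vehicle, 233 and 183 at day 3, and 35.5 and 76.8 at day 7 in the HEV gate, a difference of -1.34 (edgeR adjusted p 0.288). For Ifit2 the difference was -1.28 (edgeR adjusted p 0.288). These 4 genes were chosen after their values were seen. At day 7 the same test had 393 genes at an unadjusted p under 0.05 (1.74% higher and 1.2% lower in the capillary response), none called (0%) and a lowest adjusted p of 1. The day 3 count of called genes depended on single libraries: without each in turn it was 153, 21, 1, 6, 102 and 67.

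Against vehicle, day 7 members had fewer genes at an unadjusted p under 0.05 than day 3 members, and Sele stood below its vehicle level in both pairs. edgeR called none of 13269 genes (0% higher, 0% lower), 189 had an unadjusted p under 0.05 (1.42% of genes, 0.588% higher, 0.837% lower), and DESeq2 called 0. First among the 10 genes of lowest p, by the rule used for day 3, was Cd74 (ENSMUSG00000024610, chromosome 18, 60803848 to 60812652, plus strand), the chaperone of MHC class II, at 100.3 and 79.2 CPM at vehicle, 60.3 and 61.5 at day 3, and 57.7 and 54.8 at day 7, or log2 -0.67 (SE 0.13, edgeR adjusted p 1.00). Of 8 class II genes tested, 3 had an unadjusted p under 0.05, all downward, with a median log2 of -0.57, and in 4 both day 7 libraries lay below both vehicle libraries, against 13.4% of all genes. The other 2 were H2-Aa, at 30.2 and 20.5 CPM at vehicle, 19.7 and 17.1 at day 3, and 16.8 and 12.8 at day 7, and H2-Eb1, at 17.4 and 13.4 CPM at vehicle, 17.3 and 16.1 at day 3, and 11.9 and 8.51 at day 7, which encode chains of the antigen-presenting complex, with log2 -0.77 (SE 0.15, edgeR adjusted p 1.00) and log2 -0.59 (SE 0.17, edgeR adjusted p 1.00). Without each library in turn the count was 2, 5, 3, 3, 3 and 2. These levels are near background. B and myeloid cells express these genes strongly, and in the members Cd74 was at 3.36 to 6.66%, H2-Aa at 2.86 to 5.64% and H2-Eb1 at 1.53 to 3.78% of the free RNA level, within the range of the 3 genes of other cells given above, so no capillary level is read from them. Cd79b, a B cell gene, stood at 2.91 and 0.930 CPM at vehicle, 0.883 and 2.05 at day 3, and 0.405 and 0.837 at day 7, and the myeloid markers summed to 32.6 and 18.1 CPM at vehicle, 10.1 and 20.8 at day 3, and 11.2 and 7.39 at day 7. Both were highest in the vehicle library labelled Cre-negative, where Cd74 and H2-Aa were also highest, and their part in the result was not tested. Class I genes had 1 and 0 of 15 at that p upward and downward, and H2-K1 was at 2063 and 2174 CPM at vehicle, 1907 and 2078 at day 3, and 2201 and 2301 at day 7.

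Cell cycle genes at day 7 had other directions under the 2 labels, a difference that was not tested. The list's median log2 against vehicle was 0.06, with -0.48 in the pair labelled Cre-negative and 0.77 in the pair labelled Cre-positive, and 0 of 30 had an unadjusted p under 0.05. With each library left out in turn, 16, 0, 0, 0, 1 and 1 genes had one upward and 0, 10, 0, 0, 0 and 1 downward, and the median was 0.71, -0.62, 0.10, 0.10, 0.44 and -0.25. In members with a UMI of a Y-linked gene alone the median was -0.46, with 5 of 30 above 0. The pair labelled Cre-positive starts from the lower vehicle level of mitotic genes given above. Sele was lower at day 7 than at vehicle under both labels, at log2 -0.94 (SE 0.23, edgeR adjusted p 1.00), and with Y-linked members alone the log2 change was 0.25. Sulf1, which trims sulfate from heparan chains, stood at 15.5 and 18.3 CPM at vehicle, 22.3 and 22.2 at day 3, and 24.0 and 26.5 at day 7, or log2 0.58 (SE 0.13, edgeR adjusted p 1.00), with both day 7 libraries above both vehicle libraries. The other 8 of the 10 genes of lowest p were 2610203C22Rik and Col8a1, lower at log2 -0.44 and -0.89, and D5Ertd615e, Ndst1, Ralgds, St8sia6, Klhl3 and Tnfrsf1b, higher by 0.36 to 0.83, all at an edgeR adjusted p of 1.00.

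Between day 3 and day 7 the members' cell cycle genes, Sele and cholesterol genes were mostly lower at day 7 in both pairs. Day 7 was compared with day 3 using the day 3 libraries of the first comparison again. edgeR called none of 13269 genes (0% higher, 0% lower, lowest adjusted p 0.123), with 2216 at an unadjusted p under 0.05 (7.23% higher and 9.47% lower), and DESeq2 called 29 higher and 64 lower (0.219% and 0.482%). All 30 cell cycle genes had a change below 0, with a median log2 of -1.52 and 26 at an unadjusted p under 0.05. In 29 of them both day 7 libraries lay below both day 3 libraries, against 25.6% of all genes. Without each library in turn the count was 29, 29, 20, 10, 18 and 27. For Tyms the comparison gave log2 -1.27 (SE 0.15, edgeR adjusted p 0.177) and for Mcm5 log2 -1.53 (SE 0.32, edgeR adjusted p 0.181). Sele, with the values given above, had log2 -2.73 (SE 0.22, edgeR adjusted p 0.123). Of 17 cholesterol genes all were below 0 and 7 had an unadjusted p under 0.05 (6, 6, 6, 5, 5 and 6 without each library in turn), and of 32 interferon-stimulated genes 7 had one upward (6, 6, 2, 4, 3 and 3). In members with a UMI of a Y-linked gene alone, 0 of the interferon-stimulated genes had one upward and 4 downward. Arrdc4, Sik1 and Pde7b were higher at day 7 than at day 3, by log2 1.22, 1.44 and 1.08, at edgeR adjusted p of 0.177, 0.177 and 0.177. At day 7 Arrdc4 stood at 42.0 and 43.0 CPM, near its vehicle level.

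Under the Cre-positive label the members held more RNA of several p53 targets and of Cdo1, the neighbour of Atg12, at vehicle, day 3 and day 7 alike. Libraries labelled Cre-positive were compared with those labelled Cre-negative over the 3 pairs. edgeR called none of 13269 genes (0% higher, 0% lower), with a lowest adjusted p of 0.362 and 246 genes (1.85%) at an unadjusted p under 0.05, 1.13% higher and 0.723% lower. DESeq2 called 3 genes (0.0226%), all higher: Cdo1, Phlda3 and Eda2r. These shares hold for the fit to all 6 libraries, and each refit with a library left out has shares of its own here too. Cdo1 (ENSMUSG00000033022, chromosome 18, 46713193 to 46728395, minus strand), the cysteine dioxygenase gene that follows Atg12 on the same strand, stood at 4.47 and 29.7 CPM at vehicle, 5.30 and 22.2 at day 3, and 3.24 and 29.6 at day 7, or log2 2.63 (SE 0.22, edgeR adjusted p 0.362). Ap3s1, which flanks Atg12 on its other side, was at 71.1 and 70.1 CPM at vehicle, 69.8 and 77.9 at day 3, and 70.5 and 79.5 at day 7, or log2 0.10 (SE 0.09, edgeR adjusted p 1.00). Cdo1 was higher in all 3 pairs without overlap, while Ap3s1 was not. What its reads come from was not tested.

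Targets of p53, the tumour suppressor that answers DNA damage, stood higher in the libraries labelled Cre-positive. Of 22, 19 were above 0, 12 were higher in all 3 pairs, against 9.19% of all genes, and 11 had an unadjusted p under 0.05, with none lower. The median log2 was 0.38 over the 3 pairs, and 0.34, 0.31 and 0.54 at vehicle, day 3 and day 7. None passed the edgeR adjusted threshold, and DESeq2 called 2 of them. Phlda3 (ENSMUSG00000041801, chromosome 1, 135766119 to 135769136, plus strand), which blocks Akt at the membrane, stood at 11.8 and 32.6 CPM at vehicle, 20.2 and 57.1 at day 3, and 9.59 and 48.0 at day 7, or log2 1.74 (SE 0.19, edgeR adjusted p 0.647). Eda2r (ENSMUSG00000034457, chromosome X, 97333840 to 97377216, minus strand), a receptor of the TNF family, was at 2.91 and 16.5 CPM at vehicle, 4.16 and 13.7 at day 3, and 4.73 and 14.5 at day 7, or log2 1.94 (SE 0.23, edgeR adjusted p 0.661). Both were higher in each library labelled Cre-positive than in every library labelled Cre-negative, and in the members they stood at 54.7 to 123% and 46.1 to 109% of their free RNA levels. The cell cycle inhibitor Cdkn1a was at 114 and 191 CPM at vehicle, 119 and 148 at day 3, and 135 and 269 at day 7, and the pro-apoptotic Bax at 123 and 154 CPM at vehicle, 150.2 and 223 at day 3, and 126 and 189.8 at day 7. Ccng1 was at 19.7 and 24.8 CPM at vehicle, 18.5 and 33.8 at day 3, and 18.2 and 35.8 at day 7 and the nuclease Aen at 10.7 and 16.7 CPM at vehicle, 17.7 and 27.1 at day 3, and 11.8 and 19.2 at day 7. Each of these 4 was higher under the Cre-positive label in all 3 pairs. Changes were log2 0.69 (SE 0.15, edgeR adjusted p 1.00) for Cdkn1a, log2 0.50 (SE 0.10, edgeR adjusted p 1.00) for Bax, log2 0.72 (SE 0.15, edgeR adjusted p 1.00) for Ccng1 and log2 0.66 (SE 0.11, edgeR adjusted p 1.00) for Aen. Mdm2, the ligase that degrades p53, was at 41.2 and 51.2 CPM at vehicle, 34.5 and 40.4 at day 3, and 39.4 and 48.8 at day 7, or log2 0.28 (SE 0.08, edgeR adjusted p 1.00). The list members Rrm2b, Ddb2 and Sesn1 had no common direction over the pairs. Without each library in turn the count was 9, 9, 11, 11, 8 and 8 and the median 0.37, 0.37, 0.43, 0.42, 0.39 and 0.39. With Y-linked members alone the count was 5 of 21, with a median of 0.31. With genes higher in free RNA left out, 7 of the 22 remained, 2 at an unadjusted p under 0.05 and with a median of 0.10. Of all genes left by that filter, 1.23% were higher and 1.04% lower at that p.

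**Figure D5:**
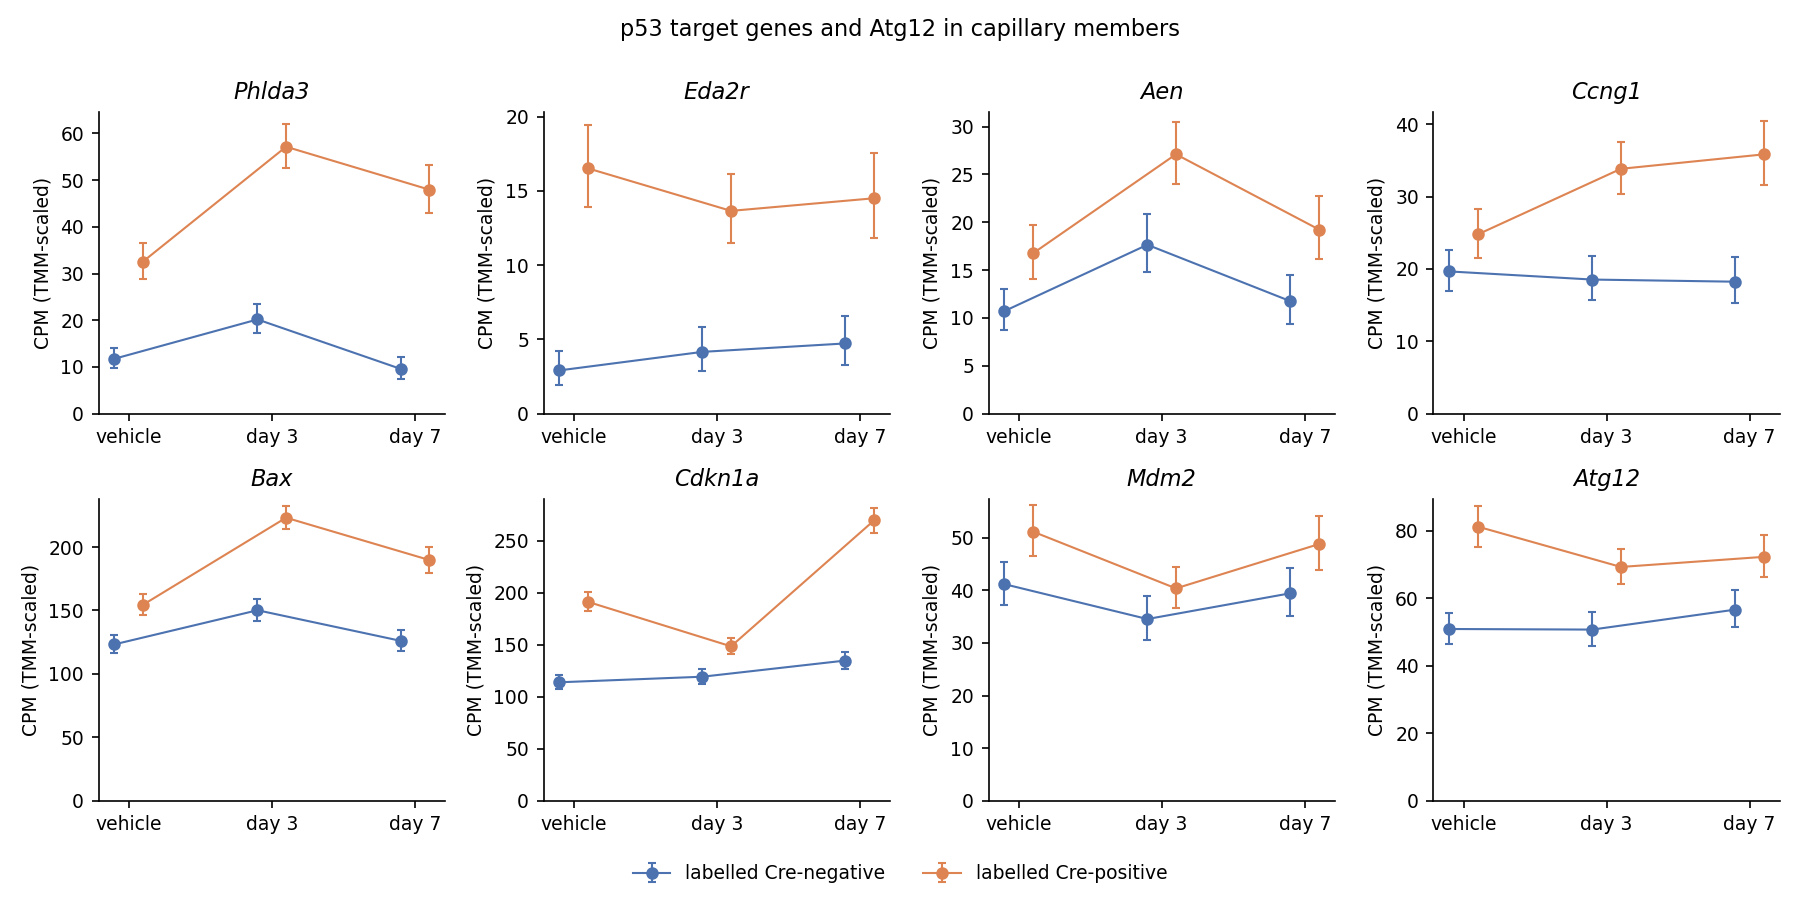
CPM (TMM-scaled, linear axes) of 7 p53 target genes and Atg12 in the capillary members of each library, by treatment and genotype label; bars on the points are exact Poisson 95% intervals of the UMI count. In all 8 panels the library labelled Cre-positive lies above the one labelled Cre-negative at vehicle, day 3 and day 7.

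Outside that group, Chrm3, a muscarinic receptor, stood at 44.2 and 66.1 CPM at vehicle, 29.8 and 44.4 at day 3, and 35.9 and 56.8 at day 7, or log2 0.60 (SE 0.08, edgeR adjusted p 0.890), and Ephx1, an epoxide hydrolase, at 33.5 and 69.0 CPM at vehicle, 37.8 and 49.7 at day 3, and 33.6 and 69.9 at day 7, or log2 0.83 (SE 0.15, edgeR adjusted p 1.00). Map3k20, Nhs and Klf10 completed the 10 genes of lowest p, at log2 0.52, 0.82 and -0.42. Nhs, like Eda2r, is X-linked, and the share of members with Xist differed between libraries as given above. Its part in these differences was not tested. Folding genes leaned lower: 14 of 22 were lower in all 3 pairs, against 11% of all genes, and 5 had an unadjusted p under 0.05, with a median log2 of -0.18. Calr, a lectin chaperone, was at 239 and 161 CPM at vehicle, 251 and 201 at day 3, and 258 and 174 at day 7, or log2 -0.49 (SE 0.10, edgeR adjusted p 1.00), and Pdia6, which forms disulfide bonds, was at 194 and 150.4 CPM at vehicle, 259.6 and 193 at day 3, and 184 and 156 at day 7. The folding genes' median was -0.19, -0.19, -0.13, -0.13, -0.16 and -0.16 without each library in turn. With treatment left out of the model, 1 had an unadjusted p under 0.05. With genes higher in free RNA left out, 6 of the 22 remained, 0 of them at such a p, with a median of -0.20. Interferon-stimulated genes had 29 of 32 above 0 with a median log2 of 0.10, 10 of them higher in all 3 pairs and 4 at an unadjusted p under 0.05 (4, 4, 1, 1, 1 and 1 without each library in turn). Of all genes, 9.19% were higher in all 3 pairs and 1.85% had an unadjusted p under 0.05 in either direction. Isg15, a ubiquitin-like antiviral protein, was at 229 and 251 CPM at vehicle, 232 and 306 at day 3, and 213 and 275 at day 7. Autophagy genes other than Atg12 had 0 of 31 at an unadjusted p under 0.05 upward and 0 downward. Sqstm1, the cargo receptor p62, was at 147 and 242 CPM at vehicle, 114 and 145 at day 3, and 257 and 152 at day 7, and Atg5 at 38.4 and 45.7 CPM at vehicle, 45.5 and 42.3 at day 3, and 37.7 and 41.8 at day 7. Lipid handling genes had median log2 differences between labels of -0.31 at vehicle, -0.81 at day 3 and 0.67 at day 7, so the direction was not shared by the 3 pairs.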

How the data were processed

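Single-cell 3-prime RNA was read from CD31-sorted lymph node cells after CD45 depletion, per the labels' protocols (10x Chromium). The deposited values are UMI counts per gene and barcode, which the authors made with Cell Ranger, version 4 per the file headers and 7.0.1 per the submitters' processing notes, on build mm10. Annotation and use of strand are not given in the sources used here. Every barcode is listed in the files, so cells were chosen here by the thresholds in the report, and doublets were treated only in an alternative, Scrublet scores.

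Counts of the members were summed per library (7114761 to 10688415 UMIs), filtered with filterByExpr, scaled by TMM and fitted with edgeR 4.0.16 (glmQLFit, glmQLFTest) in R 4.3.3, on treatment plus genotype label, with Benjamini-Hochberg adjustment over all genes and 2 residual degrees of freedom. That model had no term for a treatment response that differs between labels, so such a difference was counted as error. The HEV comparison used the difference of treatment effects with library as a block. Alternatives were DESeq2 1.42.0, other scalings and filters, each library left out, and other choices of members. Thinning drew 1000 or 2000 UMIs per cell, and Python 3.11.15 with scanpy 1.11.5 was used. Intervals cover counting error only.

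The members and gene lists were chosen with earlier results of these data known. Named genes were the 10 of lowest p per comparison with a mean of at least 20 CPM and one direction in every pair, leaving out rule, ribosomal, mitochondrial, antigen receptor, haemoglobin and Y-linked genes, Xist and mRFP, while other X-linked genes were kept. Members of a gene list could also be named. Gene positions are from GENCODE on GRCm38 and promoters from RefSeq.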

Additional observations from a re-analysis of the deposited data

Results flagged for a closer look

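Some genes had opposite changes under the 2 genotype labels, by at least 0.7 log2 each way with a mean of at least 20 CPM. With 1 library for each combination these differences were not tested, and only listed genes are given here. Over 6788 genes of that level, 7, 36 and 27 had such opposite changes from vehicle to day 3, from vehicle to day 7 and from day 3 to day 7. Changes are given first for the Cre-negative and then for the Cre-positive label.

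From vehicle to day 7 these mitotic genes were lower at day 7 under the Cre-negative and higher under the Cre-positive label, on the log2 scale. Birc5, a spindle and survival protein, differed by -2.30 and 3.46 (difference 5.76), Ube2c by -1.85 and 3.53 (difference 5.37) and Cenpf by -1.73 and 2.79 (difference 4.52). Top2a differed by -1.83 and 2.03 (difference 3.86), Mki67 by -1.54 and 2.28 (difference 3.82), Cdk1 by -0.90 and 1.65 (difference 2.55) and the tubulin regulator Stmn1 by -0.89 and 1.58 (difference 2.47). The vehicle library labelled Cre-positive held 22 members with 2 or more mitotic UMIs and the day 7 library labelled Cre-negative also 22, the fewest of the 6. Col18a1, a basement membrane collagen, went the same way, by -0.71 and 1.81 (difference 2.52), as did Angptl4, an inhibitor of lipoprotein lipase, by -1.87 and 0.87 (difference 2.74).

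Over the same interval 5 other listed genes, named because they passed this limit, differed in the opposite order. Jun differed by 0.71 and -1.16 (difference -1.87), Fosb by 0.80 and -1.19 (difference -1.99), Nr4a1 by 0.90 and -1.14 (difference -2.04), Icam1 by 0.95 and -1.10 (difference -2.05) and the chemokine Cxcl1 by 0.78 and -1.58 (difference -2.36). From day 3 to day 7 Atf3 differed by 0.98 and -0.96 (difference -1.94), and from vehicle to day 3 the heat shock gene Hsph1 by 0.91 and -0.81 (difference -1.72). From day 3 to day 7 the fat-handling genes Tcf15, Aqp7 and Cd36 differed by -1.15 and 0.82 (difference 1.97), -0.82 and 1.23 (difference 2.05) and -0.87 and 0.71 (difference 1.58), with values by library given in the report.

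The tables of 4 of the 6 libraries list mRFP, a red fluorescent protein that no comparison used. It had a UMI in 99 of 2060 members (4.81%) of the vehicle library labelled Cre-positive, 203 of 2416 (8.40%) at day 3 and 87 of 1500 (5.80%) at day 7. It had one in 0 of 1707 in the day 7 library labelled Cre-negative, which allows a share of up to 0.176% by the limit of 3 counts of the total, or 0.216% by the exact Clopper-Pearson limit. The other 2 libraries labelled Cre-negative do not list it. This limits members with a UMI, not members that express it.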

How the results depend on the processing

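No paired analysis was possible because the labels give no replicate numbers to pair libraries by. The comparison of labels is matched by treatment instead, through the treatment term and the 3 pairs of libraries, and the HEV comparison has library as a block. The numbers of called genes, 0 by edgeR in every comparison, depended on the method. DESeq2 called 92 at day 3 against vehicle, 93 at day 7 against day 3 and 3 between labels, and edgeR without the filter on low counts called 74, 122 and 3. Without the filter the differences from the HEV response had 86 calls at day 3 and 2 at day 7. With cells thinned to 2000 UMIs there were 34 and 2 there, 1 at day 7 against day 3 and 1 between labels. Leaving treatment out of the model gave 1 between labels, leaving out genes higher in free RNA gave 1 at day 7 against day 3, and members with Y-linked UMIs alone gave 5 at day 3 and 5 at day 7 against vehicle. Leaving out each library in turn gave 0 to 2 at day 3 and 0 to 1 at day 7 against vehicle, and 1 to 153 and 0 to 14 for the HEV differences at day 3 and day 7. The cause of these moves was not tested.

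The 102 gene results had 1714 alternative values, of which 1613 kept direction and side of the threshold, 100 passed it, and 1 reversed: Sele at day 7 against vehicle, at log2 0.25 in members with Y-linked UMIs alone. The share of members among endothelial cells ranged from 30.1 to 48.6% over 18 alternative values, and 11 left the counting interval. Of 90 shares of members with a UMI, 88 left it on thinning, so these shares depend on depth. With 2 residual degrees of freedom and 1 library per combination, differences between labels at a single time have no replicate. For genes as low against free RNA as those of other cells, class II among them, expression in the members cannot be told apart from free RNA.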
